A study of Arabidopsis thaliana with 6 samples.

Results

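The double B-box genes BBX18 to BBX25 of Arabidopsis thaliana were taken by gene ID: AT2G21320 (BBX18), AT4G38960 (BBX19), AT4G39070 (BBX20), AT1G75540 (BBX21), AT1G78600 (BBX22), AT4G10240 (BBX23), AT1G06040 (BBX24) and AT2G31380 (BBX25). All 8 IDs were found among the 33323 gene IDs listed for each library. Of these 8, 7 reached the level set for testing, 1 RPKM on average in WT or in hid1, and BBX23 did not. RPKM are reads mapped to a gene, scaled by its length and by the size of the library. The libraries came from poly(A) RNA of whole seedlings at 5 days of age, with 3 libraries of the wild type (WT) and 3 of the hid1 (hidden treasure 1) mutant, given by the submitters as biological replicates. Both genotypes grew in the condition labelled cR, an abbreviation usual for continuous red light. Neither the hid1 allele nor the natural accession of the plants was named in the labels. HID1 produces a noncoding RNA known to favour photomorphogenesis, the mode of seedling growth in light, and to lower transcription of the factor gene PIF3 in red light. HID1 is paired with no gene ID in the annotation used here, so its own level was not analysed.

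B-box proteins are zinc-finger factors, and this subfamily carries a pair of B-boxes in tandem at the N-terminus and no CCT domain. They bind other regulators of light signalling, among them the bZIP factor HY5 and the ubiquitin ligase COP1, which marks several of them for degradation in darkness. In seedlings BBX20, BBX21, BBX22 and BBX23 are known to favour photomorphogenesis and a short hypocotyl. BBX18, BBX19, BBX24 and BBX25 are known to oppose it. Setting hid1 beside WT shows which of these transcripts differ in red light between seedlings with and without normal HID1 function.

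BBX20 rose most in hid1, BBX21 rose less and BBX18 fell, so that 2 of the 7 tested genes were called higher and 1 lower. BBX20 went from a mean of 2.30 RPKM in WT to 7.71 in hid1, BBX21 from 32.8 to 45.4, and BBX18 from 13.1 to 6.01. The other 4 tested genes, BBX19, BBX22, BBX24 and BBX25, did not pass the test. The call required an adjusted p no greater than 0.05 in limma, with log2(RPKM + 1) values and Benjamini-Hochberg adjustment over all 18871 genes tested. Across those genes 13.6% were called in either direction, 9.41% higher in hid1 and 4.21% lower. On this log2(RPKM + 1) scale, BBX20 and BBX18 were also changed more than 2-fold, the size the submitters asked for. So were 3.41% of all genes tested. BBX18 was only just past that size, at a log2 fold change of -1.001. In RPKM, the hid1 mean was 3.35 times the WT mean for BBX20 and 0.458 times for BBX18. With a pseudocount of 5, which shrinks the changes of low genes further, BBX18 (-0.712) and BBX20 (0.801) both fell short of that size. On the log2(RPKM + 1) scale, BBX18 also fell short without WT replicate 1 (-0.995), WT replicate 2 (-0.863) or hid1 replicate 3 (-0.884). The split over all genes was 1775 higher and 794 lower, against 1310 and 1338 with quantile normalization and 1340 and 1236 with median-ratio scaling of the libraries. The median log2 fold change was -0.09 over the 7 tested genes and 0.07 over all genes tested. Log2 fold changes give the hid1 mean less the WT mean of log2(RPKM + 1), a scale that understates the change of low genes, and are followed by their standard error (SE). The genotypes did not overlap in BBX20 and BBX21, with every hid1 library above every WT library, as in 23.1% of all genes tested, and in BBX18, with every hid1 library below, as in 11.4%.

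**Figure D1:**
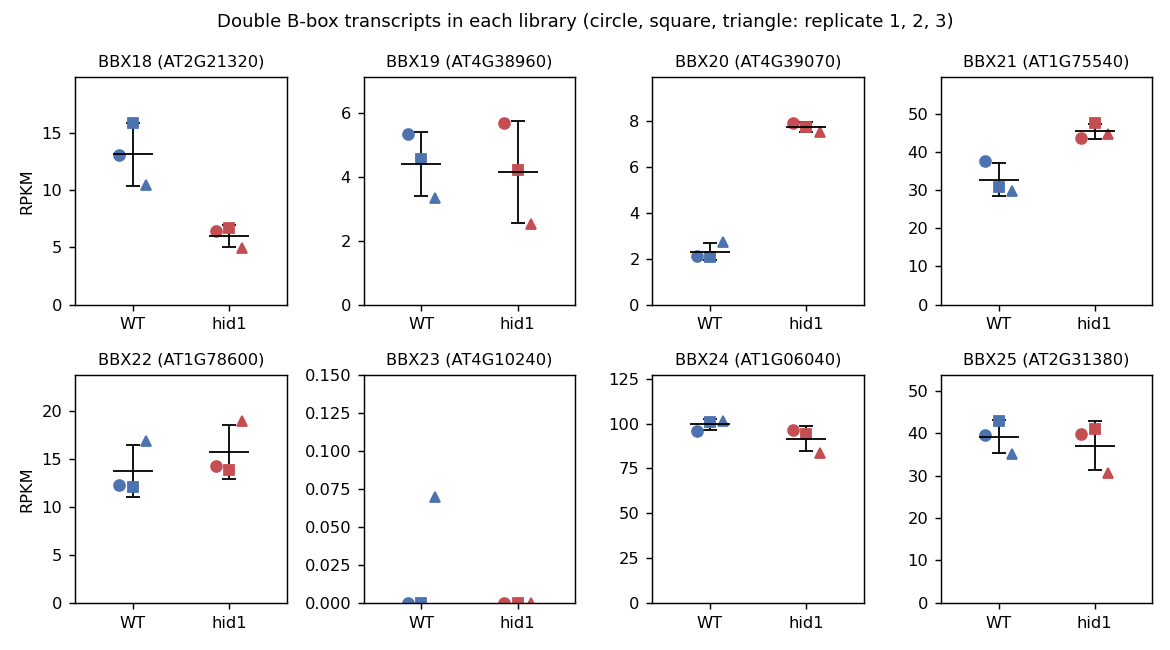
Level of each double B-box transcript in RPKM (vertical axes, each starting at 0) in 3 WT and 3 hid1 libraries; the horizontal bar is the mean and the error bar the SD, drawn for the 7 tested genes. The 3 hid1 libraries lie between 7.49 and 7.91 RPKM for BBX20, above all WT libraries, and between 4.92 and 6.69 RPKM for BBX18, below all WT libraries.

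Depth and organ makeup were compared first. The depth was about 19.7 to 26.1 M reads in the WT libraries and about 17.9 to 23.7 M reads in the hid1 libraries, estimated from the value of a single read. Over all genes tested, 9.41% were called higher in hid1 and 4.21% lower. Of 10 root and root hair markers, 9 were tested, with 3 called higher in hid1 and 1 lower, and none was at 0 in any library. Their summed level was 164.4, 83.0 and 84.21 RPKM in WT replicates 1, 2 and 3, and 186.5, 112.9 and 143.3 RPKM in hid1 replicates 1, 2 and 3. The sum includes IRT1, the marker called lower, at 50.42, 29.25 and 28.87 RPKM in WT and 4.71, 6.46 and 7.60 RPKM in hid1. As the mean of log2(RPKM + 1) over the 10 genes, which weights them alike, the level was 3.17, 2.35 and 2.41 in WT and 3.15, 2.93 and 2.98 in hid1. WT replicate 1 stood apart from the other WT libraries on both measures, within the hid1 range by the sum and above every hid1 library by the mean. Without it, the same 3 double B-box genes were called. Of 8 green-tissue markers 1 was called lower and none higher, with summed levels of 64960 to 66370 RPKM in WT and 55550 to 70420 RPKM in hid1. None was at 0 in any library, and 6 of the 8 had a negative log2 fold change. Their mean log2(RPKM + 1) was 11.89, 11.90 and 11.91 in WT and 11.79, 11.78 and 11.51 in hid1, so every hid1 library was below every WT library and hid1 replicate 3 was the lowest. Without hid1 replicate 3, BBX18 and BBX20 were still called, with log2 fold changes of -0.88 and 1.42, and BBX21 was not (0.47, limma adjusted p = 0.0707). In such bulk samples, fewer cells of a type and less RNA per cell cannot be told apart. The part of organ makeup in the results below was not tested.

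Among the genes that favour photomorphogenesis, BBX20 encodes BZS1, a B-box factor that restrains hypocotyl elongation and whose gene is repressed by the brassinosteroid factor BZR1. Its level was 2.11, 2.07 and 2.72 RPKM in WT replicates 1 to 3 and 7.91, 7.73 and 7.49 RPKM in hid1 replicates 1 to 3. The lowest hid1 library, at 7.49 RPKM, was far above the highest WT library, at 2.72 RPKM, and the spread within each genotype was small (SD 0.364 in WT and 0.211 in hid1, n = 3). The hid1 mean was 3.35 times the WT mean, with a log2 fold change of 1.41 (SE 0.14, 95% interval 1.09 to 1.72, limma adjusted p = 0.000186). At least 58 reads in each WT library and 201 in each hid1 library lay behind these values, by the estimate of depth. Without WT replicate 1, the log2 fold change of BBX20 was 1.37. The call held in each of the 12 other settings tried, with adjusted p between 7.10e-05 and 0.00547. In RPKM, BBX20 thereby moved from below BBX18 and BBX19 in every WT library to above both in every hid1 library.

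BBX21 encodes a factor, also named STH2, that binds the HY5 promoter and raises HY5 expression. Its level was 37.74, 30.85 and 29.91 RPKM in WT and 43.82, 47.77 and 44.74 RPKM in hid1. The lowest hid1 library was above the highest WT library, by 43.82 against 37.74 RPKM. Means were 32.8 ± 4.28 and 45.4 ± 2.07 RPKM (SD, n = 3), a ratio of 1.38 and a log2 fold change of 0.46 (SE 0.12, 95% interval 0.20 to 0.72, limma adjusted p = 0.0267). This call was less stable than that on BBX20. It was lost with quantile normalization (adjusted p = 0.0585) and with median-ratio scaling (0.0661), and when any single library except WT replicate 1 was left out (0.0561 to 0.107). WT replicate 1 was the highest WT library for BBX21, and without it the log2 fold change was 0.57 (limma adjusted p = 0.00618). Its log2 fold change lay between 0.37 and 0.57 in the 12 other settings. Among these, testing without the filter on low values and blocking by replicate number cannot change a log2 fold change.

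BBX22, or LZF1, is a light-induced activator of chloroplast and anthocyanin genes. Its level was 12.27, 12.10 and 16.84 RPKM in WT and 14.31, 13.81 and 18.95 RPKM in hid1. The genotypes overlapped, since WT replicate 3 was above hid1 replicates 1 and 2. The log2 fold change of 0.18 did not pass the test (SE 0.16, 95% interval -0.18 to 0.54, limma adjusted p = 0.493). BBX23, which acts with HY5 in red, far-red and blue light, was listed at 0 RPKM in 5 libraries and at 0.07 RPKM in WT replicate 3, which amounts to about 2 reads. It entered no test at these levels, and no fold is given for it.

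Among the genes that oppose photomorphogenesis, BBX18 encodes a factor that promotes hypocotyl elongation and binds the clock protein ELF3. Its level was 13.07, 15.89 and 10.42 RPKM in WT and 6.43, 6.69 and 4.92 RPKM in hid1. The highest hid1 library, at 6.69 RPKM, lay below the lowest WT library, at 10.42 RPKM. The hid1 mean was 0.458 times the WT mean (13.1 ± 2.74 and 6.01 ± 0.956 RPKM, SD, n = 3). On the log2 scale it fell by 1.001 (SE 0.17, 95% interval -1.38 to -0.63, limma adjusted p = 0.00361). About 286 to 342 reads per WT library and 126 to 165 reads per hid1 library lay behind it. The call held in each of the 12 other settings, with log2 fold changes between -1.15 and -0.71 and adjusted p up to 0.0263.

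BBX19, the closest relative of BBX18 in the family and a repressor of flowering through CONSTANS, did not pass the test. Its level was 5.33, 4.55 and 3.33 RPKM in WT and 5.69, 4.22 and 2.51 RPKM in hid1, with the genotypes overlapping over most of their range. The log2 fold change was -0.10 (SE 0.23, 95% interval -0.62 to 0.42, limma adjusted p = 0.805). That interval still holds a fall or a rise of moderate size. The log2 ratio of BBX18 to BBX19 within each library was 1.152, 1.606 and 1.399 in WT and 0.151, 0.559 and 0.754 in hid1. It was lower in every hid1 library than in any WT library, by 0.90 on average (two-sided exact permutation p = 0.1, the smallest that 3 against 3 libraries allow). Apart from the pseudocount, such a ratio does not depend on how a library was scaled.

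BBX24 and BBX25, known as STO and STH, bind HY5 and COP1 and restrain the response to light and UV-B. BBX24 was the most abundant transcript of the 8, at 96.15, 101.2 and 101.5 RPKM in WT and 96.72, 94.41 and 83.76 RPKM in hid1. The genotypes overlapped, and hid1 replicate 3 was the lowest library. The log2 fold change of -0.12 did not pass (SE 0.10, 95% interval -0.35 to 0.11, limma adjusted p = 0.464). BBX25 stood at 39.57, 42.84 and 35.07 RPKM in WT and at 39.72, 40.89 and 30.52 RPKM in hid1, with replicate 3 the lowest in both genotypes. Its log2 fold change of -0.09 did not pass either (SE 0.14, 95% interval -0.39 to 0.22, adjusted p = 0.719). These intervals leave room for small changes of both transcripts. The log2 ratio of BBX24 to BBX25 was 1.33 ± 0.155 in WT and 1.29 ± 0.123 in hid1 (SD, n = 3, two-sided exact permutation p = 0.7). For BBX21 and BBX22 the log2 ratio was 1.21 ± 0.382 in WT and 1.49 ± 0.266 in hid1, with overlapping libraries (two-sided exact permutation p = 0.4). The 3 ratios were tested as 1 family, and with a smallest possible p of 0.1 none could pass.

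RPKM are scaled by gene length, so levels are set beside each other here. The annotation and the handling of multiply mapped reads and of strand are not known, and could change the order and shares below. The order of mean RPKM in WT was BBX24, BBX25, BBX21, BBX22, BBX18, BBX19, BBX20 and BBX23. In WT the ranges of BBX25 and BBX21 overlapped, as did those of BBX22 and BBX18, and the other neighbours in this order did not overlap. In hid1 the order was BBX24, BBX21, BBX25, BBX22, BBX20, BBX18, BBX19 and BBX23, and only the ranges of BBX18 and BBX19 overlapped. The summed level of the 8 transcripts was 206.2, 209.5 and 199.9 RPKM in WT and 214.6, 215.5 and 192.9 RPKM in hid1, which overlapped. BBX24 made up 46.6% to 50.8% of this sum in WT and 43.4% to 45.1% in hid1. The share of BBX21 was 14.7% to 18.3% in WT and 20.4% to 23.2% in hid1. BBX18 held 5.21% to 7.59% in WT and 2.55% to 3.10% in hid1, whereas BBX20 held 0.988% to 1.36% and then 3.59% to 3.88%. Shares sum to a whole, so a rise of one lowers the others.

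**Figure D2:**
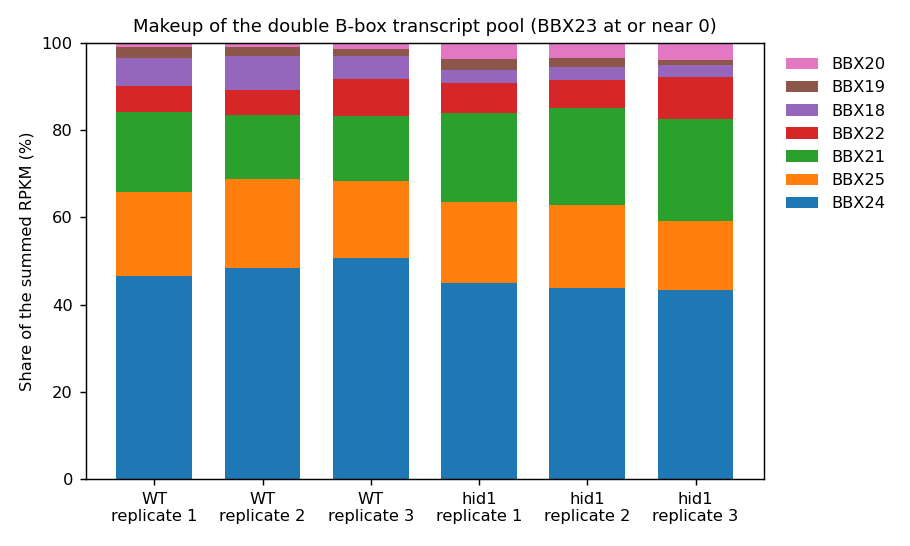
Share of each double B-box gene in the summed RPKM of the 8 genes (vertical axis, percent) for the 3 WT and 3 hid1 libraries; each stacked bar is 1 library and BBX23 is too low to be seen. The BBX20 band at the top is 0.988% to 1.36% of the sum in WT and 3.59% to 3.88% in hid1, and the BBX18 band narrows from at least 5.21% to at most 3.10%.

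The genes lie on chromosomes 1 (BBX21, BBX22 and BBX24), 2 (BBX18 and BBX25) and 4 (BBX19, BBX20 and BBX23), in the TAIR10.1 annotation of RefSeq. BBX20 spans 18204631 to 18206684 on the minus strand of chromosome 4, BBX21 spans 28365824 to 28367738 on the plus strand of chromosome 1, and BBX18 spans 9126263 to 9127987 on the plus strand of chromosome 2. The 300 bases before the annotated start of these 3 genes, the ones called changed, are shown because they moved in opposite directions. They are the reference sequence of RefSeq (TAIR10.1), written 5′ to 3′ on the strand of the gene and ending at the base before its start. Capitals mark ACGT, the core of the elements that bZIP factors such as HY5 and bHLH factors such as PIF3 are known to bind.
BBX20, chr4:18206685-18206984, minus strand: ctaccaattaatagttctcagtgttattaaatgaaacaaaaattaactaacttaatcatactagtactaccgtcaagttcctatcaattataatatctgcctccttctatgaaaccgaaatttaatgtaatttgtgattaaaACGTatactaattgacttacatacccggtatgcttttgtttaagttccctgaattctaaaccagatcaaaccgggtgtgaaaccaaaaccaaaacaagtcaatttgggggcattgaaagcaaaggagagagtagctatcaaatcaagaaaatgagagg
BBX21, chr1:28365524-28365823, plus strand: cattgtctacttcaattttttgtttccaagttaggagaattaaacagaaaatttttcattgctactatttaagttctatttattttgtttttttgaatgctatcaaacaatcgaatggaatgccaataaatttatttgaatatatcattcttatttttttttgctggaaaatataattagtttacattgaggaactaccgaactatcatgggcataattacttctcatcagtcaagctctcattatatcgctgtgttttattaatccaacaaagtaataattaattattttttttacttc
BBX18, chr2:9125963-9126262, plus strand: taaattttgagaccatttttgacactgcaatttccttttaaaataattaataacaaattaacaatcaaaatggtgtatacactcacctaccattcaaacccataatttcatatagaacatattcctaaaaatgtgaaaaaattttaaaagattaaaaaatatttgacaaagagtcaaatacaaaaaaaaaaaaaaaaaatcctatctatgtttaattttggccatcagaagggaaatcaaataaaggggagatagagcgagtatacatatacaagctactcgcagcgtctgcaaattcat
Each window was searched on both strands for the G-box CACGTG, for CACATG and for ACGT, which is also contained in every CACGTG. The BBX20 window held ACGT once, at 158 bases before the start, and the BBX21 and BBX18 windows held none of the 3 motifs. Among the other genes, ACGT was present once each before BBX19 and BBX24, whose transcripts did not pass the test. None of the 8 windows held CACGTG, which was found in 7.2% of the same windows of 26711 protein-coding genes, or CACATG, found in 13.1%. ACGT was found in 49.1% of them and in 3 of the 8. A match is only a description of these letters, and sites outside these windows were not searched.

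Genes beside or overlapping the 8 were examined because no label says whether reads were counted by strand. Of 19 such genes in the TAIR10.1 annotation, 16 were listed and 10 were tested, with 1 called lower and none higher. The shares over all genes tested were 4.21% lower and 9.41% higher. The one called lower was AT4G38950, next to BBX19 (log2 fold change -0.59, SE 0.14, limma adjusted p = 0.0171). BBX18 and BBX19 each end close to a plastid aldolase gene on the opposite strand, FBA1 at 135 bases and FBA2 at 155 bases, both chosen here after their values were seen. FBA1 was far more abundant than BBX18, at 997.1 ± 94.8 RPKM in WT and 738.7 ± 89.8 RPKM in hid1 (SD, n = 3; limma adjusted p = 0.0532). Its ratio of means was 0.741, beside 0.458 for BBX18, and its part in the BBX18 values was not tested. FBA2 stood at 2383 ± 160.9 RPKM in WT and 1850 ± 262.8 RPKM in hid1 (adjusted p = 0.110). BBX20 overlaps AT4G39060 by 4 bases, and that gene was at 0.05 RPKM or lower in every library. BBX25 overlaps AT2G31390 on the opposite strand by 48 bases, where reads of the pair cannot be told apart without strand, and AT2G31390 did not pass the test (adjusted p = 0.504). BBX24 overlaps AT1G06045 on the opposite strand by 344 bases, and that gene was not analysed here.

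The other 24 B-box family members were described to set the 8 in context. Of these, 20 were tested, and 1 rose, 2 fell and 17 missed the threshold, where 13.6% of all genes tested were called. The median log2 fold change of the 20 was -0.17 beside -0.09 for the 7 double B-box genes. COL7 (BBX16), known for a role in the response to shade, fell most among them. Its level was 25.77, 26.72 and 25.31 RPKM in WT and 15.64, 12.91 and 6.86 RPKM in hid1, with no overlap (log2 fold change -1.14, SE 0.23, limma adjusted p = 0.00880). COL9 (BBX7), a repressor of flowering, rose from 9.28, 9.75 and 10.97 RPKM to 14.09, 14.45 and 22.27 RPKM (0.68, SE 0.17, adjusted p = 0.0254). COL2 (BBX3), a close relative of the flowering gene CONSTANS, fell from 52.61, 57.43 and 48.46 RPKM to 41.84, 39.85 and 25.89 RPKM (-0.57, SE 0.17, adjusted p = 0.0477). For all 3, hid1 replicate 3 was the library farthest from WT. COL2 lost its call in 6 of the 12 alternatives tried (highest adjusted p 0.133), COL9 in 3 (highest 0.0775) and COL7 in 1 (0.0511). The count of called members was 0 of 23 tested without a filter on low values, 1 of 21 without WT replicate 2 and 1 of 20 without hid1 replicate 3. Over all genes, 1819 of 25794, 1430 of 18876 and 1614 of 18897 were called in these settings.

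**Figure D3:**
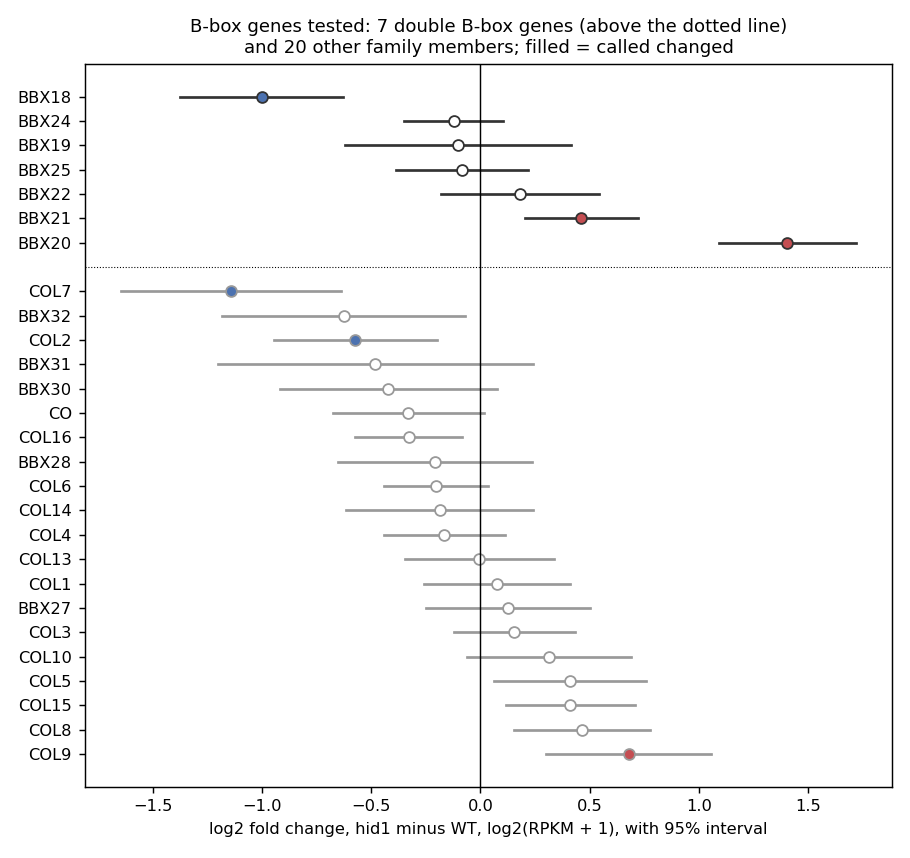
Log2 fold change from WT to hid1 in log2(RPKM + 1) on the horizontal axis for the 7 tested double B-box genes, above the dotted line, and 20 other B-box family members, below it; lines are 95% intervals and filled points are genes called changed. BBX20 at 1.41 lies farthest to the right of all genes drawn, and COL7 at -1.14 and then BBX18 are farthest to the left.

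Genes whose products bind or control the double B-box proteins were also read from the same test. Of 17 such genes, all tested, 1 rose and 16 missed the threshold, where 13.6% of all genes tested were called. The median log2 fold change of the 17 was 0.00. The one that rose was PIF3, the bHLH factor that promotes elongation, from 14.2 ± 2.32 to 32.4 ± 2.42 RPKM (SD, n = 3; 1.14, SE 0.13, limma adjusted p = 0.000409). HY5, the partner of BBX20 to BBX25 and the gene whose promoter BBX21 binds, stood at 9.70, 9.70 and 5.75 RPKM in WT and 9.99, 13.24 and 11.99 RPKM in hid1. The HY5 libraries did not overlap, but hid1 replicate 1, at 9.99 RPKM, was close to the WT libraries at 9.70 RPKM, and the difference did not pass (0.47, SE 0.19, adjusted p = 0.130). Genotypes whose libraries did not overlap made up 34.6% of all genes tested. COP1 was at 11.2 ± 0.887 RPKM in WT and 13.8 ± 2.69 RPKM in hid1 and did not pass (0.26, SE 0.15, adjusted p = 0.282). Of 9 genes on which these factors are known to act with HY5, 8 were tested and 0 passed in limma, where 13.6% of all genes tested were called. Their median log2 fold change was -0.07. ELIP2, which encodes an early light-induced protein, is named after its values were seen. It was at 4.23 ± 1.56 RPKM in WT and 12.1 ± 8.21 RPKM in hid1 (1.19, SE 0.36, limma adjusted p = 0.0516). The hid1 libraries were at 6.66, 21.52 and 8.05 RPKM, so replicate 2 weighed most in that mean. ELIP2 was called in 5 of the 12 other settings, among them without WT replicate 1, without WT replicate 2 and without hid1 replicate 1. It was not called without WT replicate 3, hid1 replicate 2 or hid1 replicate 3. Nor was it called with quantile normalization or median-ratio scaling.

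For each called member, the genes most like it over the 6 libraries were found as those with the smallest root mean square difference of centred log2(RPKM + 1) values, among 12712 genes averaging 5 RPKM or more. BBX20 was closest to AGT3 (0.08 on the log2 scale), UMAMIT33 (0.10) and DIN10 (0.10), which rose from 6.84 to 19.7, from 9.33 to 25.3 and from 140.5 to 337.9 mean RPKM. AGT3 encodes an aminotransferase, UMAMIT33 a member of a family of amino acid transporters, and DIN10 is named for its induction in darkness. BBX18 was closest to NDA1 (0.07), AT1G26761 (0.16) and AT1G06830 (0.18), which fell from 25.0 to 12.7, from 15.8 to 8.28 and from 32.2 to 14.0 mean RPKM. NDA1, an alternative NADH dehydrogenase gene, shared with BBX18 its highest WT level in replicate 2 and its lowest level in hid1 replicate 3. NDA1 was picked for its likeness to BBX18, so this match is no separate result. AT1G26761 and AT1G06830 were lowest in hid1 replicate 1, at 7.53 and 12.27 RPKM. BBX21 was closest to AT4G27350 (0.03), PUX2 (0.03) and IAR4 (0.04), of which IAR4, for a pyruvate dehydrogenase subunit, was called higher (limma adjusted p = 0.0254) and the others did not pass (0.0784 and 0.0524). These are a description of patterns over only 6 libraries.

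**Figure D4:**
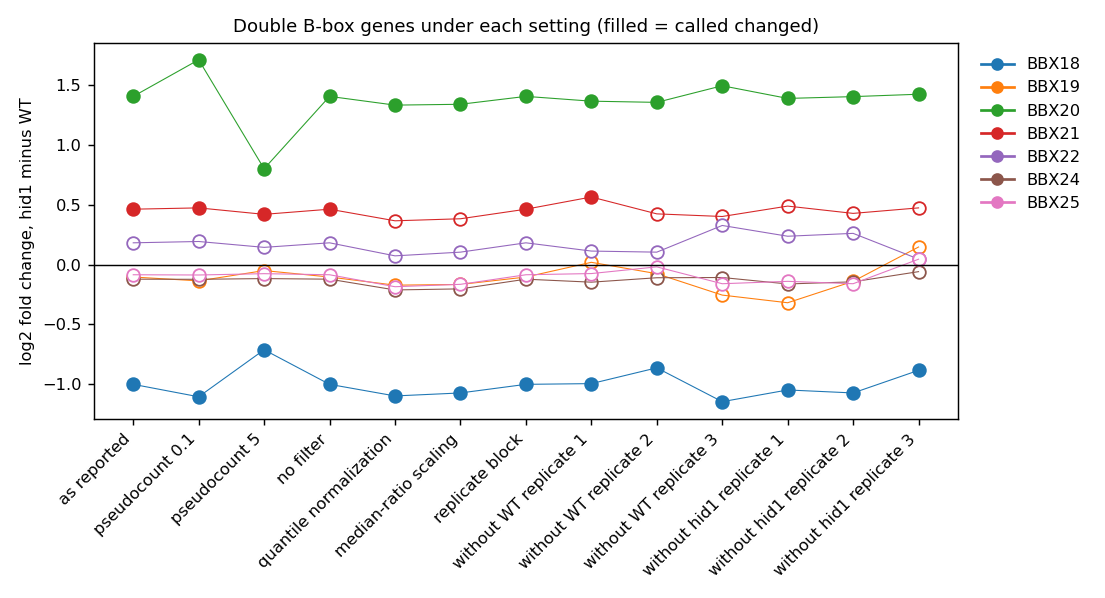
Log2 fold change of each tested double B-box gene (vertical axis, hid1 minus WT) as reported and under 12 other settings (horizontal axis); filled points passed the threshold of 0.05. BBX20 (0.80 to 1.71) and BBX18 (-1.15 to -0.71) are filled in every setting, and BBX21 is filled in 5 of the 12 others. The other 4 genes lie between -0.32 and 0.33 and are never filled.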

How the data were processed

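The 6 libraries were grouped and numbered by their titles. Per the labels' protocols, poly(A) RNA was made into libraries with a TruSeq RNA kit. Per the submitters' processing notes, reads were mapped with TopHat2 2.0.9 to TAIR10 and Cuffdiff 2.0.0 was used. Values are RPKM as deposited, which the file headers state. For the read counter, annotation, RPKM denominator, multiply mapped reads and strand, the sources used here name no setting. These could change values of related or overlapping genes.

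Of 33323 gene IDs, 32835 matched RefSeq (TAIR10.1), which gave positions, exon lengths and promoters. Depth was estimated from single-transcript genes under 500 bases, where the commonest product of RPKM and exon length was read as 1 read. Approximate reads per gene follow from it and cover counting error only. Members of the family, the lists and the naming rule (every called member of a list, at most 4, with HY5 and COP1, and 3 most alike genes per called member) were chosen with earlier results of these data known.

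RPKM are not counts, so log2(RPKM + 1) was tested with limma 3.58.1 (R 4.3.3, lmFit and eBayes with trend), with no covariate beside genotype, for genes averaging 1 RPKM or more in WT or hid1. Ratios were tested with two-sided exact permutation tests, 3 libraries against 3. Alternatives were pseudocounts of 0.1 and 5, no filter, quantile normalization, median-ratio scaling, a replicate block and the omission of each library in turn. Python 3.11.15, pandas 2.3.3, numpy 2.4.6 and matplotlib 3.10.9 were used.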

Additional observations from a re-analysis of the deposited data

How the results depend on the processing

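The calls on BBX18 and BBX20 held in all 12 other settings, and BBX19, BBX22, BBX24 and BBX25 were called in none. The log2 fold change of BBX20 was 1.71 with a pseudocount of 0.1 and 0.80 with a pseudocount of 5, which compresses low genes by construction. The number of double B-box genes called was 3 or 2 in every setting, and 2 where BBX21 lost its call. When 1 library was left out, the log2 fold change of BBX19 lay between -0.319 and 0.147, and turned positive without WT replicate 1 (0.019) and without hid1 replicate 3. That of BBX25 lay between -0.16 and 0.045, positive without hid1 replicate 3. The difference in the log2 ratio of BBX24 to BBX25 lay between -0.104 and 0.052, and was positive without WT replicate 3 and without hid1 replicate 2 (0.016). The other ratio differences kept their sign, with 1 library left out, from -1.031 to -0.729 for BBX18 to BBX19 and from 0.075 to 0.451 for BBX21 to BBX22. With a pseudocount of 5 they were -0.661 and 0.276. Over all genes, 1430 to 3260 were called with 1 library left out. The count was 1430 for WT replicate 2 omitted, 1562 for WT replicate 3, 1517 for hid1 replicate 2 and 1614 for hid1 replicate 3, and it was highest for WT replicate 1. The cause of these shifts was not tested.

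With the replicate number as a block, 3635 genes were called, 3 of them double B-box genes, and no call among the 8 changed. The differences of the log2 ratios were -0.90, 0.28 and -0.04, which a block cannot change in this balanced layout. Deviations from the genotype means correlated at 0.39, 0.08 and 0.13 for same-numbered libraries. Between libraries of different number they correlated from -0.405 to 0.333. These values do not settle whether the numbers pair the libraries, and the main test did not pair them. With the block, 7 of 20 other B-box genes tested and 3 of 17 partner genes tested were called, beside 3635 of all 18871 genes tested.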
